A study of Homo sapiens with 8 samples.

Results

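The genes described here are 10 secreted factors that act on blood vessels: the vascular endothelial growth factors VEGFA, VEGFB, VEGFC and PGF, the platelet-derived growth factor PDGFC, the angiopoietin ANGPT1, the angiopoietin-like protein ANGPTL4, the vasoactive peptides ADM and EDN1, and the matrix glycoprotein THBS1. They were taken by symbol, as 10 of the 56638 symbols listed in the count tables, and all 10 had enough reads to be tested in each knockdown. They were selected on their roles and on their levels and changes after siRNA and shRNA in these same libraries, so the changes below, with their calls, describe the picked genes and support nothing beyond them. RNA was sequenced from SCC25, a widely used squamous carcinoma line of the head and neck, in which the transcription factor ETS1 had been knocked down. The question was how transient and stable loss of ETS1 changed the RNA of these cells.

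The 8 libraries formed 4 groups of 2 replicates. In the siRNA control and ETS1 siRNA groups, the cells carried non-targeting siRNAs or a pool of several siRNAs against ETS1, delivered with Lipofectamine RNAiMAX. In the shCON and shETS1 groups, the cells carried a lentiviral non-targeting hairpin or an ETS1 hairpin (construct number 3 in the labels) and were selected with puromycin at 2 μg/ml, so shETS1 stands for 1 hairpin only. All groups were grown in DMEM/F12 with serum and hydrocortisone at 400 ng/ml. The study's methods call the siRNA samples biological replicates. For the shRNA libraries no source used here says that the replicates came from separate cultures, and their p-values measure the spread between these libraries, which may be technical.

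Carcinoma cells make many of the signals that draw vessels towards a tumor. VEGFA signals to endothelial cells through the receptor KDR, PGF and VEGFB bind FLT1, and VEGFC acts mainly on lymphatic endothelium through FLT4. ANGPT1 is the activating ligand of TEK, ADM relaxes vessels through the receptor CALCRL with a RAMP partner, EDN1 constricts vessels through EDNRA, and THBS1 restrains angiogenesis through CD36 and CD47. Several of these genes, VEGFA, ADM and ANGPTL4 among them, are known targets of the hypoxia-inducible factors, and ANGPTL4 is also a known target of the PPAR nuclear receptors.

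The targeted gene was lower in every knockdown library. ETS1 stood at 288 and 248 CPM (the count relative to the scaled library size) in the siRNA control and at 17.4 and 13.2 CPM in the ETS1 siRNA libraries, a log2 fold change of -4.13 ± 0.19 (SE). In the stable lines it stood at 82.3 and 72.1 CPM in shCON and at 9.76 and 11.1 CPM in shETS1, a log2 fold change of -2.89 ± 0.10. Libraries held 15954616 to 20469763 counts in the siRNA table and 23834078 to 25953213 in the shRNA table. CPM were scaled within each table and the kind of knockdown went with the table, so levels in the siRNA and shRNA libraries were not compared with each other. Non-polyadenylated structural RNAs made up at most 0.00339% of the counts of the siRNA libraries, 5.61% and 6.63% of those of shCON, and 12.3% and 9.64% of those of shETS1. The cell type was checked on its markers: all 10 squamous epithelial markers exceeded 1 CPM in every group, and PECAM1, a defining endothelial marker, was at 0 in all 8 libraries. The 10 endothelial markers summed to between 8.09 and 19.9 CPM, of which EGFL7 alone averaged 8.1 to 16.5 CPM in the groups. The 8 leukocyte markers summed to between 3.49 and 5.09 CPM. The 9 fibroblast markers summed to between 205 and 237 CPM in the siRNA control, 304 and 355 CPM in ETS1 siRNA, 271 and 295 CPM in shCON, and 2160 and 2260 CPM in shETS1. Different genes carried these sums: COL1A1 (mean 134 CPM) in the siRNA control, and LUM (1320 CPM), DCN (661 CPM) and COL3A1 (150 CPM) in shETS1. The 7 markers tested after shRNA all rose, while THY1 (2 and 4 reads in shETS1) and PDGFRB (9 and 8) were too low to be tested there. The part of the fibroblast markers in the results was not tested. In such bulk samples, fewer cells of a kind and less RNA per cell cannot be told apart.

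After stable loss of ETS1 the factors moved in both directions. VEGFA and VEGFC were 6.02-fold and 4.91-fold lower, while ANGPT1, EDN1 and ADM were 8.12-fold, 7.13-fold and 6.92-fold higher. After siRNA the same genes were 1.42-fold and 1.03-fold lower (VEGFA, VEGFC), 1.19-fold and 1.25-fold lower (ANGPT1, EDN1) and 1.27-fold higher (ADM), and of these VEGFA alone passed the test. Genes count as called where edgeR's quasi-likelihood test gave an adjusted p under 0.1 (Benjamini-Hochberg, over all genes). All 10 members were called after shRNA, 3 higher and 7 lower, and 2 after siRNA, both lower (VEGFA and THBS1). Of all genes tested, 60.6% were called after shRNA (29.7% higher and 30.9% lower) and 3.41% after siRNA (1.13% higher and 2.27% lower), so a call after shRNA was the usual state of a gene. Called changes of at least 2-fold were seen in 7 members and 14.6% of all genes after shRNA, while no member reached 2-fold after siRNA, where 0.834% of all genes did with a call. The siRNA calls depended on single libraries: 0 members were called without siRNA control replicate 1 (72 of all genes, in place of 502), 1 without siRNA control replicate 2 or ETS1 siRNA replicate 2, and 3 without ETS1 siRNA replicate 1 (1478 of all genes). At an unadjusted p under 0.05 in edgeR, 4 members passed after siRNA, and DESeq2 called 2 there as well. After shRNA, 9 or 10 members were called whichever library was left out. The median log2 fold change of the members was -0.75 after shRNA and -0.20 after siRNA, where that of all genes was 0.00066 and 0.0018.

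**Figure D1:**
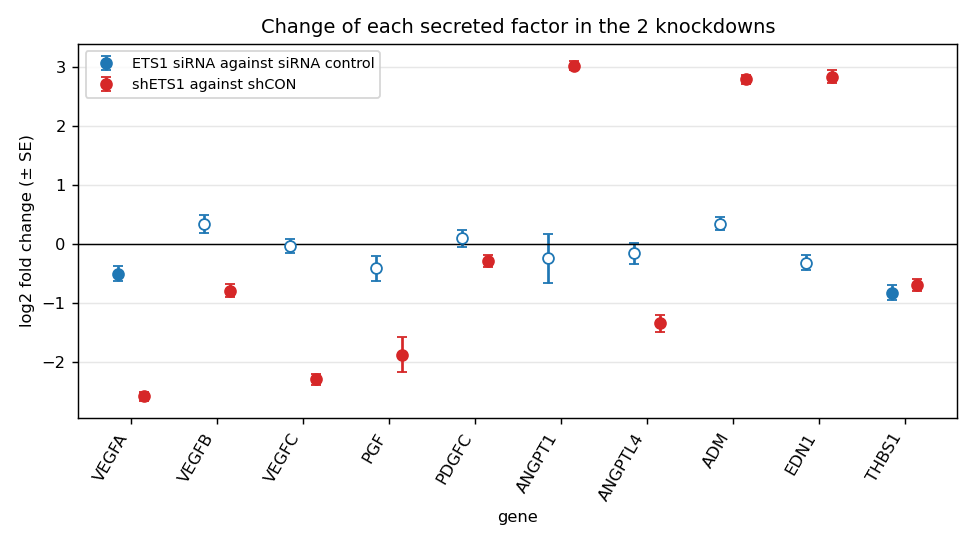
Log2 fold change of each of the 10 factors (vertical axis, error bars ± SE, 2 libraries in each group) in ETS1 siRNA against siRNA control (blue) and in shETS1 against shCON (red), with filled points for genes called at an adjusted p under 0.1 and open points for the others. The red points lie between -2.59 for VEGFA and 3.02 for ANGPT1, and the blue points between -0.83 for THBS1 and 0.34 for VEGFB and ADM.

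VEGFA, the main growth factor of blood vessels, lies at chr6:43737921-43754224 on the plus strand of GRCh37. It measured 249 and 229 CPM in the siRNA control and 171 and 164 CPM after ETS1 siRNA, and the groups did not overlap. Its shCON values were 146 and 143 CPM and its shETS1 values 24.5 and 23.5 CPM. Its log2 fold change was -0.51 ± 0.13 after siRNA and -2.59 ± 0.08 after shRNA, and both passed the test. The siRNA call stood at the threshold (adjusted p = 0.0998, edgeR) and was lost without siRNA control replicate 1 or 2 and without ETS1 siRNA replicate 2, where the fold change lay between -0.57 and -0.45. Exons of an opposite-strand long non-coding RNA share 1.3% of the exon bases of VEGFA, and whether counting used strand is not stated.

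VEGFC, the lymphatic member of the family (chr4:177604689-177714076, minus strand), had the largest difference between the knockdowns among the 5 growth factors, -2.27 ± 0.13 on the log2 scale (shRNA change minus siRNA change). Its 4 siRNA table values were 267 and 260 CPM in the control and 249 and 262 CPM in ETS1 siRNA, which overlap. In the stable lines it went from 79.6 and 74.9 CPM in shCON to 15.8 and 15.7 CPM in shETS1. The log2 fold change was thus -0.04 ± 0.12 after siRNA, which did not pass, and -2.30 ± 0.09 after shRNA, which did.

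VEGFB, a ligand of FLT1 that is linked to the survival of vessels and to fat uptake more than to their growth, lies at chr11:64002056-64006736 on the plus strand. It stood at 43 and 45.4 CPM in the siRNA control and at 48.2 and 63.4 CPM in ETS1 siRNA. After shRNA it stood at 10.9 and 12.1 CPM, against 19 and 21 CPM in shCON. The 2 knockdown groups lay on opposite sides of their controls, above after siRNA (0.34 ± 0.15, not called, adjusted p = 0.275) and below after shRNA (-0.80 ± 0.11, called). Without ETS1 siRNA replicate 1 the siRNA value was 0.53, and without ETS1 siRNA replicate 2 it was 0.12. The size of the siRNA value thus depended on single libraries, and replicate 2 carried most of it.

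PGF, the placenta growth factor (chr14:75408537-75422329, minus strand), was the least abundant of the family. It was read 59 times in each shCON library and 11 and 19 times in shETS1, which is 2.35 and 2.27 CPM against 0.479 and 0.753 CPM. The shRNA change of -1.88 ± 0.30 therefore rested on few reads and had the widest error of the called changes. After siRNA it stood at 8.2 and 9.46 CPM against 14 and 9.54 CPM, a change of -0.42 ± 0.21 that was not called.

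Summed over the 4 ligands and divided by transcript length, the VEGF family came to 219 and 209 CPM per kb in the siRNA control and 189 and 202 CPM per kb in ETS1 siRNA. The sums were 87.6 and 85.6 CPM per kb in shCON and 20.1 and 20.6 CPM per kb in shETS1. The make-up of the family changed with the level. The shares within a library depend on the length used, for VEGFA 3609 bases of canonical transcript against 14431 exon bases in all. VEGFA gave 46.2% of the family's level in both shCON libraries and 33.8% and 31.6% in shETS1, where VEGFB, the member that fell least, gave 30.1% and 32.6% instead of 12% and 13.6%. VEGFC gave most of the family's level in the siRNA table, 54% and 54.9% in the control and 58.3% and 57.4% in ETS1 siRNA.

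**Figure D2:**
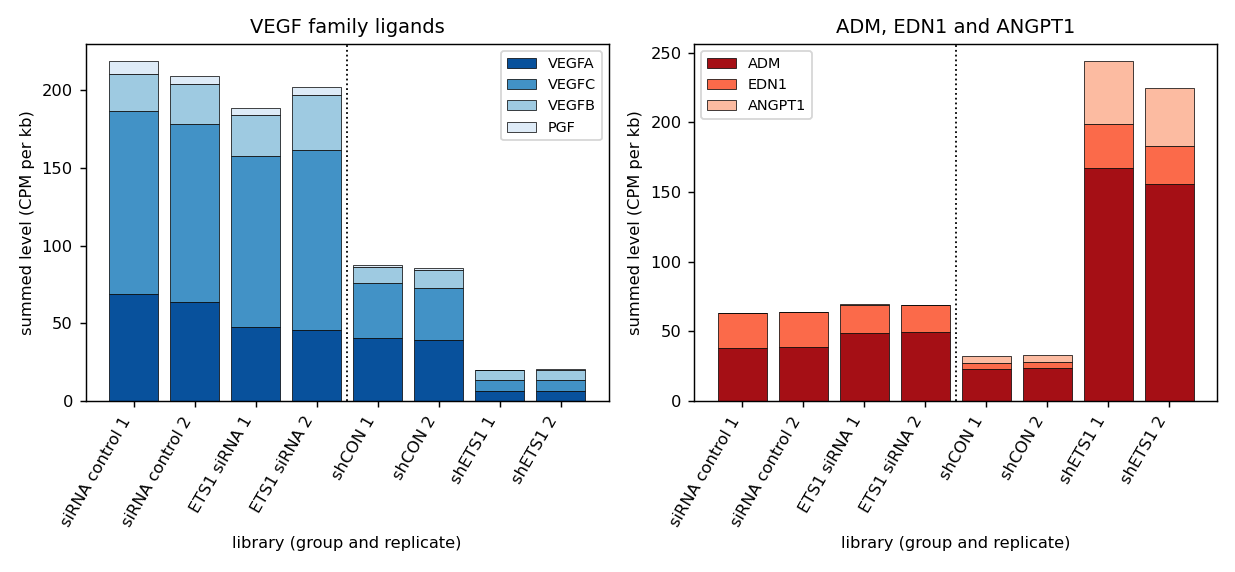
Stacked bars of the level (CPM per kb of transcript) of the 4 VEGF family ligands (left) and of ADM, EDN1 and ANGPT1 (right) in each of the 8 libraries, with a dotted line between the siRNA and shRNA tables, whose levels were scaled separately. In shETS1 the VEGF family sums are 20.1 and 20.6 CPM per kb against 87.6 and 85.6 in shCON, while the stack of ADM, EDN1 and ANGPT1 is higher in shETS1.

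PDGFC, a growth factor for mesenchymal cells that carry PDGFRA (chr4:157681606-157892951, minus strand), changed least of the 10 after shRNA. It measured 24 and 22 CPM in the siRNA control and 23.7 and 25.2 CPM in ETS1 siRNA, a change of 0.09 ± 0.14 that was not called. In the stable lines it went from 23.3 and 22.1 CPM to 17.7 and 19.1 CPM, a fall of 0.30 ± 0.10 on the log2 scale that passed the test (adjusted p = 0.0162, edgeR). Without shCON replicate 1 that call was lost, at -0.27 and an adjusted p of 0.119.

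ANGPT1, the activating ligand of the endothelial receptor TEK, lies at chr8:108261710-108510283 on the minus strand and showed the largest rise of the 10 after shRNA. It was read 545 and 619 times in shCON and 4402 and 4495 times in shETS1, which is 21.7 and 23.9 CPM against 192 and 178 CPM. The log2 fold change was 3.02 ± 0.08. In the siRNA table ANGPT1 was low, with 15 and 19 reads in the control and 15 and 15 in ETS1 siRNA, or 0.739 to 1.18 CPM. No difference was detectable at this depth: the siRNA change was -0.25 ± 0.41, and its sign depended on 1 library (0.09 without siRNA control replicate 2).

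ANGPTL4, a secreted inhibitor of lipoprotein lipase that also acts on vessel permeability (chr19:8428173-8439254, plus strand), went the other way. It stood at 10.1 and 10.2 CPM in shCON and at 3.96 CPM in both shETS1 libraries, a log2 fold change of -1.35 ± 0.14. In the siRNA table it stood at 41.6 and 31.9 CPM in the control and at 28.8 and 37.2 CPM in ETS1 siRNA. These groups overlapped, and the change of -0.16 ± 0.18 was not called.

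ADM encodes adrenomedullin, a peptide that widens vessels, at chr11:10326620-10328944 on the plus strand. In shETS1 it measured 250 and 233 CPM, and in shCON 34.7 and 35 CPM, a log2 fold change of 2.79 ± 0.08. In ETS1 siRNA it measured 72.5 and 73.9 CPM against 57.4 and 58.1 CPM in the control, groups that did not overlap. That change of 0.34 ± 0.11 had the same direction but was not called (adjusted p = 0.175, edgeR). When all 8 libraries shared 1 estimate of the spread it was called, at 0.35 and an adjusted p of 0.0461 (edgeR). That fit called 2166 of all genes after siRNA, in place of 502. DESeq2 did not call the ADM change after siRNA (adjusted p = 0.233).

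EDN1 encodes endothelin-1, a peptide that narrows vessels and is also made by epithelial cells, at chr6:12290594-12297427 on the plus strand. It stood at 7.99 and 8.71 CPM in shCON and at 64.7 and 54.6 CPM in shETS1, a log2 fold change of 2.83 ± 0.11. In the siRNA table it stood at 50.2 and 50.5 CPM in the control and at 42 and 38.8 CPM in ETS1 siRNA. These groups did not overlap, but the change of -0.32 ± 0.12 was not called (adjusted p = 0.209, edgeR) and its direction was the opposite of that after shRNA. ADM and EDN1, whose peptides have opposite effects on vessel tone, thus rose together in the stable line. Their summed level was 199 and 183 CPM per kb in shETS1 against 27.2 and 27.8 in shCON, and 69.2 and 68.6 CPM per kb in ETS1 siRNA against 63.1 and 63.7 in the control.

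THBS1, thrombospondin-1 (chr15:39873280-39891667, plus strand), fell in both knockdowns. It measured 5910 and 5100 CPM in the siRNA control and 3220 and 2960 CPM in ETS1 siRNA, a change of -0.83 ± 0.13 (adjusted p = 0.0273, edgeR). It measured 3700 and 3010 CPM in shCON and 2000 and 2130 CPM in shETS1, a change of -0.70 ± 0.10. VEGFA fell in both as well, with a difference between its changes of -2.10 ± 0.13, which passed the test, whereas the difference between the THBS1 changes was 0.11 ± 0.18 (adjusted p = 0.697, edgeR). Without siRNA control replicate 1 the siRNA call of THBS1 was lost, at -0.72 with an adjusted p of 0.369. Opposite-strand exons of FSIP1 and THBS1-AS1 share 4.89% and 4.49% of the exon bases of THBS1.

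**Figure D3:**
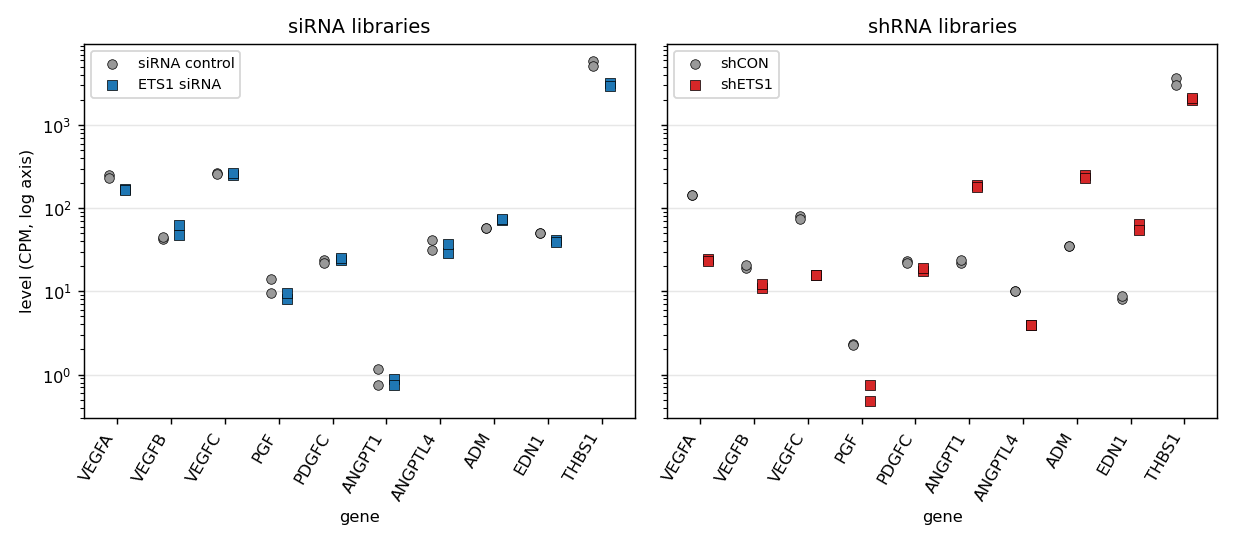
Level of each of the 10 factors in every library (CPM on a log axis), with siRNA libraries on the left and shRNA libraries on the right, grey circles for controls and colored squares for knockdowns. THBS1 lies above the other 9 genes in every library, from 2000 to 5910 CPM, and in the shRNA table the squares of ANGPT1, ADM and EDN1 lie above their circles.

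The groups did not overlap in CPM for 10 members after shRNA and for 6 after siRNA, where 76.6% and 51.9% of all genes tested did not overlap. A test of the difference between the 2 changes, in a fit of all 8 libraries, called 9 of the 10 members and 34.8% of all genes. The shRNA change was the higher one for 3 of them (EDN1, ANGPT1 and ADM), where 15.1% of all genes were called in that direction, and the lower one for 6, where 19.7% were. THBS1 was the exception. The kind of knockdown, its duration, the selection of the stable line and the table cannot be told apart in this difference.

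The order of the factors by level per kb of canonical transcript changed with the stable knockdown. Reads were counted per gene, and places between genes depend on the length used. VEGFA has 14431 exon bases in all and a canonical transcript of 3609 bases, and no other length was tried. THBS1 came first in all 4 groups, at 707 ± 74.3 CPM per kb (SD, n = 2) in the siRNA control, 396 ± 23.2 in ETS1 siRNA, 431 ± 62.2 in shCON and 265 ± 12.3 in shETS1. By CPM it ranked 5, 15, 12 and 23 among all genes in these groups. In shCON it was followed by VEGFA (40 ± 0.676 CPM per kb), VEGFC (34.1 ± 1.47) and ADM (23.4 ± 0.147). EDN1 was the next to last there, at 4.1 ± 0.249 CPM per kb, and ANGPTL4 and ANGPT1, at 5.41 and 5.38, could not be ranked beyond their spread. In shETS1 the genes after THBS1 were ADM at 162 ± 8.1 CPM per kb, ANGPT1 at 43.7 ± 2.27 and EDN1 at 29.3 ± 3.51. VEGFC (6.95 ± 0.0357), VEGFA (6.65 ± 0.208) and VEGFB (6.38 ± 0.452) came next, and the last 2 of these overlapped.

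The order in the siRNA table moved at fewer places. The siRNA control had VEGFC at 116 ± 2.33 CPM per kb, VEGFA at 66.2 ± 3.79 and ADM at 38.7 ± 0.323 in that order after THBS1. After ETS1 siRNA, VEGFC was at 113 ± 4.2, and ADM at 49.1 ± 0.683 came before VEGFA at 46.5 ± 1.37. ANGPT1 was last in both groups, at 0.229 ± 0.0718 and 0.191 ± 0.0224 CPM per kb. EDN1 and VEGFB overlapped in the control, as did EDN1 with ANGPTL4 and PDGFC with PGF in ETS1 siRNA.

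Ratios of levels per kb within a library put the same levels and changes in another form and are not a further result. Between genes they depend on the transcript length used. The level of VEGFA over that of ADM was 1.79 and 1.63 in the siRNA control and 0.976 and 0.918 in ETS1 siRNA. It was 1.74 and 1.68 in shCON and 0.0406 and 0.0417 in shETS1. ADM, EDN1 and ANGPT1 together gave 24.8% and 25.8% of the summed level of the 9 factors other than THBS1 in shCON, and 90.4% and 89.3% in shETS1. In the siRNA table this share was 20.4% and 21.7% in the control and 24.9% and 23.2% after ETS1 siRNA. The level of THBS1 over that of VEGFA was 11.7 and 9.78 in shCON and 37.8 and 42.1 in shETS1, but 11 and 10.3 in the siRNA control and 8.7 and 8.35 in ETS1 siRNA. This ratio was thus above its control after shRNA and below it after siRNA.

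Promoter windows of 300 bases, 250 before and 50 after an annotated start, were taken from a RefSeq table, and 10 windows of 7 members (VEGFB, VEGFC, PGF, ANGPTL4, ADM, EDN1 and THBS1) matched GRCh37 at 1 place each. VEGFA, ANGPT1 and PDGFC were not matched. The windows were searched on both strands for CCGGAA and CAGGAA, which carry the GGAA core bound by ETS factors, for ACGTG and GCGTG, the core letters of hypoxia response elements, for TGANTCA, the AP-1 letters, and for TATAAA. No match overlapped another motif of this list in the windows printed here. Shown are the 2 peptide genes that rose after shRNA, the strongest fall among the growth factors with a window, and THBS1, which fell in both knockdowns. Capitals mark the matches, and positions count from the annotated start, negative before it.

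The ADM window, chr11:10326370-10326669 on the plus strand, holds CAGGAA at -18 and on the other strand at -235, GCGTG at -101 and TATAAA at -27.
ADM: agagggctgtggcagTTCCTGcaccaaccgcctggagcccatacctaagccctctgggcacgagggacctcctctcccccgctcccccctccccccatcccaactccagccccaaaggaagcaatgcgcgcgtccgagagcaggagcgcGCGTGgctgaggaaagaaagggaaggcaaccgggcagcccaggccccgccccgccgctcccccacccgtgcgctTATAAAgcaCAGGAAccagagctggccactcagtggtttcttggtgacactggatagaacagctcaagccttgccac
Of the 3 EDN1 windows, the one at the start of the annotated gene, chr6:12290344-12290643 on the plus strand, holds TATAAA at -31 and ACGTG on the other strand at -123.
EDN1: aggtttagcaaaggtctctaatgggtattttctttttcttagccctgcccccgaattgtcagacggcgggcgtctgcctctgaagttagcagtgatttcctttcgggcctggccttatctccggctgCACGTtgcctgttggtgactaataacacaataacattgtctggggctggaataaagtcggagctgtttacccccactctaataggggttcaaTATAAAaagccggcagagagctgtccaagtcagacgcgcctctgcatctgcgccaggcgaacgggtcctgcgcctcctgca
The VEGFC window, chr4:177714027-177714326 on the minus strand, is written along the gene and holds GCGTG on the other strand at -59.
VEGFC: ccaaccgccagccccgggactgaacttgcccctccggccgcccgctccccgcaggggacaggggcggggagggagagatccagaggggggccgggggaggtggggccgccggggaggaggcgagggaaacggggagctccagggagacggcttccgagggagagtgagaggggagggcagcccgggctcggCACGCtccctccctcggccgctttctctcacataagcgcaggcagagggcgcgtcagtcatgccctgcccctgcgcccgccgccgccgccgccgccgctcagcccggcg
The THBS1 window, chr15:39873030-39873329 on the plus strand, holds CAGGAA at -48 and on the other strand at -86, and GCGTG at -227.
THBS1: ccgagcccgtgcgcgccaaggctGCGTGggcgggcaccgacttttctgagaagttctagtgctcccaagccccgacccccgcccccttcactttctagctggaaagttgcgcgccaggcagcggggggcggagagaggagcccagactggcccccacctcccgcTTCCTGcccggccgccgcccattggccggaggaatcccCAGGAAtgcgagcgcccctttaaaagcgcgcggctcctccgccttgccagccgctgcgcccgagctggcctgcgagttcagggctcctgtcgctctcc

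CAGGAA was found for 4 of the 7 members with a window, ADM, THBS1, PGF and EDN1, and in 28.4% of all 35116 windows of this length. That share is per window, and PGF and EDN1 had several. The EDN1 match, at -210, lies in a window not printed here. CCGGAA was found in no window of a member and in 17.2% of all windows. GCGTG stood in windows of VEGFB, VEGFC, PGF, ADM, EDN1 and THBS1, and in 36.5% of all windows, again a share per window. Its EDN1 match, at -47, lies in another window that is not printed. ACGTG stood in those of ANGPTL4 and EDN1 (21.4% of all), and TATAAA in those of ANGPTL4, ADM and EDN1 (11.5% of all). TGANTCA stood in no window of a member and in 7.71% of all. The windows also differed in base composition, with 76.3% G and C in VEGFC, 70% in THBS1, 65% in ADM and 52.7% in the EDN1 window, where the median of all windows was 58.7%. A match gives the presence of these letters and says nothing on binding. ADM, which rose after shRNA, and THBS1, which fell, each held 2 matches of CAGGAA.

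Other genes of vessel biology were described on lists drawn up from textbook roles, with earlier results of these data known. Their counts and medians are a description. After siRNA, of 17 other angiogenic ligands tested 2 fell and 15 did not pass, with a median log2 fold change of -0.20, and 4 were called without siRNA control replicate 2 or without ETS1 siRNA replicate 1. The 2 were IL8, a chemokine that attracts neutrophils and endothelial cells (122 to 52.7 CPM, -1.21 ± 0.22), and HBEGF, a ligand of the EGF receptor (79.7 to 35.5 CPM, -1.17 ± 0.27). Of all genes tested, 3.41% were called after siRNA and 60.6% after shRNA (29.7% higher and 30.9% lower). These shares are the background for this list and for each list below. After shRNA, 3 of the 17 rose and 10 fell, with a median of -0.92. FGF2, a growth factor for endothelium and fibroblasts, fell by 2.93 ± 0.10 (51.1 to 6.67 CPM) and HBEGF by 2.46 ± 0.13 (31.1 to 5.66 CPM), while EFNA1, a ligand of Eph receptors, rose by 1.03 ± 0.08 (30.5 to 62.4 CPM). IL8 rose by 0.96 ± 0.08 in that comparison (48.3 to 93.8 CPM), and its difference between the knockdowns, 2.15 ± 0.25, passed the test. ANGPT2, which antagonises ANGPT1 in many settings, had 11 to 19 reads in each library.

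Among vasoactive peptides and enzymes, 1 of 6 tested fell after siRNA and 5 did not pass, with a median of 0.49, and after shRNA 3 of 4 fell and 1 rose, with a median of -1.24. PTGS2, the inducible cyclooxygenase, fell in both, from 479 to 183 CPM after siRNA (-1.39 ± 0.16) and from 75.6 to 13.8 CPM after shRNA (-2.45 ± 0.10). PTGS1, the constitutive enzyme, fell by 0.63 ± 0.07 after shRNA. After siRNA it stood higher than in the control (522 to 665 CPM, 0.35 ± 0.12), a change that was not called. The difference between its 2 changes, -1 ± 0.13, passed the test. EDN2, the closest relative of EDN1, rose by 1.61 ± 0.14 after shRNA, from 4.54 to 13.9 CPM. EDN2 was also higher in both ETS1 siRNA libraries, with 73 and 50 reads against 26 and 32, but that change was not called, while EDN3 had no read in any library.

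The receptors of these factors are mostly carried by endothelium and smooth muscle, yet 15 of the 20 in the tables were tested in SCC25 cells. After siRNA 1 rose, 2 fell and 12 did not pass, with a median of -0.28, and 0 were called by edgeR without siRNA control replicate 1 and 1 without ETS1 siRNA replicate 2. EDNRA, the receptor through which EDN1 constricts vessels, fell from 16.9 to 8.42 CPM (-1.0 ± 0.16), and ITGB3, an integrin subunit, from 17.1 to 8.73 CPM (-0.97 ± 0.18). ACKR3, a decoy receptor for chemokines and adrenomedullin, rose from 90 to 130 CPM (0.54 ± 0.13). After shRNA 6 rose, 3 fell and 6 did not pass, with a median of 0.23, or 5 rose and 5 fell with scaling by library size only. ACKR3 rose again (1.61 ± 0.08) and EDNRA fell again (-2.31 ± 0.22), while ITGB3 was at 0.31 ± 0.23 and did not pass. NRP1 and NRP2, co-receptors of VEGF proteins, fell by 1.06 ± 0.08 (79.6 to 38.1 CPM) and 2.00 ± 0.13 (25.6 to 6.35 CPM). KDR, the main VEGFA receptor, was read 46 and 44 times in shCON and 550 and 600 times in shETS1, a rise of 3.76 ± 0.14. CD36, a receptor of THBS1 and of fatty acids, rose from 69.6 to 375 CPM (2.43 ± 0.09). The endothelial marker list summed to between 8.09 and 8.58 CPM in shETS1 and between 9.02 and 9.31 CPM in shCON. EGFL7 alone averaged 8.1 CPM in shETS1 and 8.28 CPM in shCON, and PECAM1, CDH5 and EMCN were at 0 in both. The source of the KDR reads was not tested. TEK, the ANGPT1 receptor, had 2 and 3 reads in shCON and 16 and 24 in shETS1.

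Enzymes that process or clear the peptides were described in the same way. After siRNA 1 of 12 fell, PLAT, the tissue plasminogen activator (33.9 to 17.8 CPM, -0.93 ± 0.19), 11 did not pass, and the median was 0.04. After shRNA 4 of 11 rose and 6 fell, with a median of -0.31, or 2 rose and 6 fell with scaling by library size only. PLAT fell again, by 0.63 ± 0.14. PAM, which amidates adrenomedullin, rose by 0.88 ± 0.07 (179 to 329 CPM), and MME, neprilysin, which degrades endothelin and adrenomedullin, rose by 2.48 ± 0.08 (140 to 781 CPM). FURIN, a convertase that cleaves precursors of VEGFC and EDN1, fell by 0.89 ± 0.09 (63.1 to 34 CPM), and PLAU, the urokinase, by 0.83 ± 0.09 (36.6 to 20.6 CPM). Of 14 angiogenesis inhibitors beside THBS1, 1 fell after siRNA and 13 did not pass (median -0.06), with 0 called by edgeR without siRNA control replicate 1 and 2 without siRNA control replicate 2. After shRNA 3 of 13 rose and 7 fell (median -0.76). SEMA3A, a semaphorin that binds NRP1, fell in both, from 29.1 to 15.3 CPM (-0.93 ± 0.19) and from 9.45 to 0.789 CPM (-3.57 ± 0.20). After shRNA the chemokine CXCL10 fell by 2.94 ± 0.23 (7.37 to 0.965 CPM), and SERPINF1, pigment epithelium-derived factor, rose by 1.89 ± 0.15 (3.75 to 13.9 CPM). SPARC, a matrix protein, rose by 3.04 ± 0.34, from 8 and 9 reads to 54 and 80.

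Since several members are hypoxia or PPAR targets, the pathway genes were described too. Of 12 oxygen sensing factors, 1 fell after siRNA, the prolyl hydroxylase EGLN1 (39.2 to 26 CPM, -0.59 ± 0.14), and 11 did not pass (median 0.04). None was called by edgeR without either siRNA control replicate or without ETS1 siRNA replicate 2, and 2 were called without ETS1 siRNA replicate 1. After shRNA 4 rose and 4 fell (median -0.06), among them HIF1A, up from 308 to 534 CPM (0.79 ± 0.08), CITED2, an inhibitor of HIF that competes for its coactivators, up by 0.98 ± 0.09, EGLN1, up from 47.5 to 72.9 CPM (0.62 ± 0.08), HIF1AN, a hydroxylase that limits HIF activity, down by 0.44 ± 0.10, and the coactivator EP300, down by 0.85 ± 0.17. EGLN1 thus changed in opposite directions in the 2 knockdowns, with a difference of 1.19 ± 0.15 that passed the test. Of 21 HIF target genes outside the group, 1 rose, 1 fell and 19 did not pass after siRNA (median 0.12), with 0 called by edgeR without siRNA control replicate 1, 1 without siRNA control replicate 2 and 4 without ETS1 siRNA replicate 1, and of 19 tested after shRNA 6 rose, 6 fell and 7 did not pass (median -0.10). HK2, hexokinase 2, fell in both, by 0.84 ± 0.18 after siRNA and 1.21 ± 0.10 after shRNA. NDRG1 rose in both, by 0.53 ± 0.12 and 0.22 ± 0.08. After shRNA PGK1 and BNIP3 rose by 0.38 ± 0.08 and 0.39 ± 0.09, DDIT4 fell by 0.71 ± 0.08, and the called change of greatest size in this list was that of VLDLR, -1.67 ± 0.54, at 0.607 and 0.19 CPM. With scaling by library size only, 4 HIF target genes rose and 9 fell after shRNA.

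The PPAR target list had 0 of 7 called by edgeR after siRNA, with 2 at an unadjusted p under 0.05, and a median of 0.18. DESeq2 called 0 as well, and without ETS1 siRNA replicate 1 edgeR called 1. After shRNA 6 of 9 rose and 1 fell, with a median of 0.36. FABP4, a fatty acid binding protein, went from 11 and 16 reads to 308 and 265 (4.48 ± 0.23), and PDK4, a kinase that limits glucose oxidation, from 2 and 2 reads to 47 and 58. CPT1A, of fatty acid oxidation, fell by 0.24 ± 0.08. ANGPTL4, the secreted target of these receptors, fell by 1.35 in the same libraries.

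**Figure D4:**
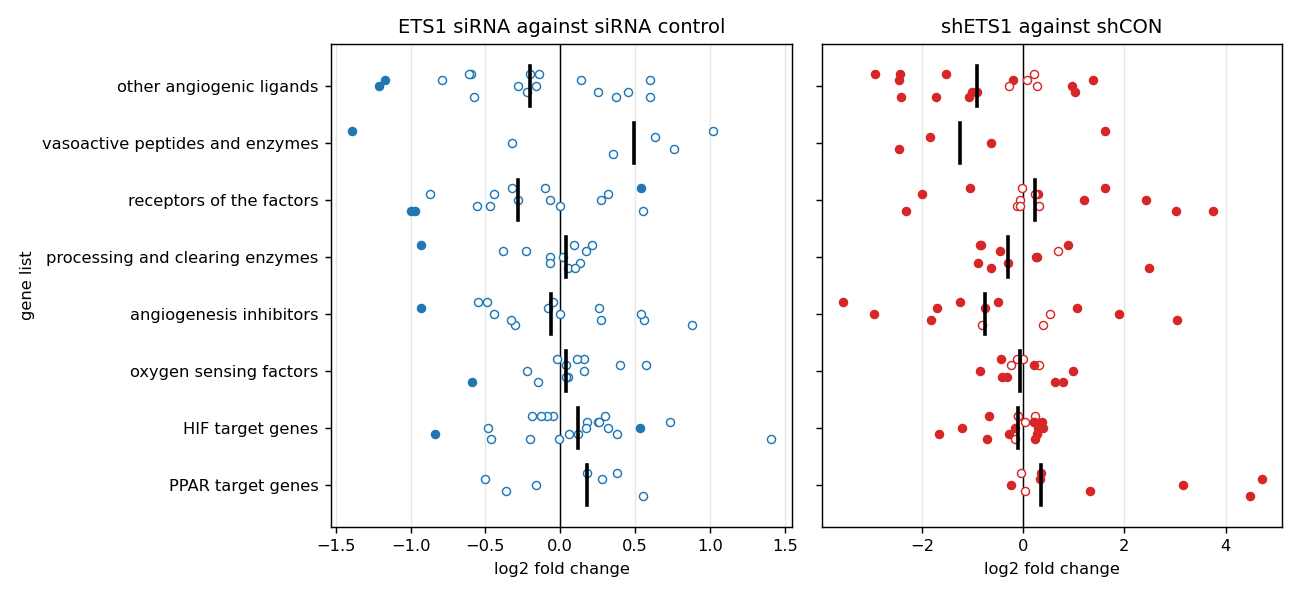
Log2 fold change of each tested gene of 8 lists of vessel, hypoxia and PPAR genes after siRNA (left) and after shRNA (right), 1 point a gene, filled where called at an adjusted p under 0.1, with a black bar at the list's median. The medians lie between -0.28 and 0.49 after siRNA and between -1.24 and 0.36 after shRNA.

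For each member, the list gene nearest to it in the pair of changes was sought among the 81 list genes that averaged 1 CPM or more in each table, with the distance on the log2 scale over the siRNA and shRNA changes. PDGFC lay 0.02 from PCSK7, VEGFB 0.1 from DDIT4, and THBS1 0.12 from PLAT. PGF and VEGFC were nearest to NRP2, at 0.12 and 0.49, ANGPTL4 to NRP1, at 0.33, and VEGFA to FGF2, at 0.36. MME was the nearest of these genes to ADM, EDN1 and ANGPT1, at 0.4, 0.54 and 0.64. Without the limit on level, an alternative added after seeing the data, 95 list genes were candidates, and 6 members had another nearest gene, in each case one with a mean under 1 CPM in one of the tables. SPARC then lay 0.05 from ANGPT1 and 0.21 from EDN1, PLIN2 0.38 from ADM, ADM2 0.2 from VEGFC and 0.35 from VEGFA, and VLDLR 0.32 from ANGPTL4. The changes come from the same 8 libraries and are a description of these libraries.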

How the data were processed

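Total RNA from SCC25 cells was made into TruSeq libraries and sequenced as short single-end reads. The authors mapped reads to GRCh37 with TopHat2 2.1.1 and Bowtie2 2.2.6 and counted them per Ensembl gene with featureCounts 1.5.0 (versions from the submitters' processing notes). The authors deposited 1 table of raw, unnormalized counts by gene symbol for each kind of knockdown. Whether counting used strand, and how multi-mapping reads were handled, is not given in the sources used here.

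ETS1 siRNA was tested against siRNA control and shETS1 against shCON, each on the 4 libraries of its table, in edgeR 4.0.16 under R 4.3.3 (quasi-likelihood F-test, two-sided, TMM scaling, filterByExpr, group as the only term). The threshold was an adjusted p of 0.1 (Benjamini-Hochberg, all genes tested). For the difference between the knockdowns, the siRNA effect was subtracted from the shRNA effect in 1 fit of the 8 libraries. SE was the fold change over the square root of F. Levels per kb used the length of the Ensembl canonical transcript (GENCODE v44 on GRCh37), and no other length was tried. Of the 56638 symbols, 33709 matched a current and 1865 an older gene name. The test was tested on simulated data. DESeq2 1.42.0 was an alternative.

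The members and the lists were chosen with earlier results of these data known. All 10 members were named, with ETS1, and from each list and comparison up to 2 called genes a direction by adjusted p (mean level 1 CPM or more), and the list gene nearest to each member. EDN2, TEK, ANGPT2, EDN3 and VLDLR were added, where outside that rule, after their values were seen. Replicates of a group differed by more than counting noise (chi-square per degree of freedom 4.32 to 15.4), so none was counted as a repeat deposit.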

Additional observations from a re-analysis of the deposited data

Results flagged for a closer look

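For 9 of the 10 factors the change after shRNA differed from the change after siRNA by the test of the difference itself (edgeR, adjusted p under 0.1, shRNA change minus siRNA change on the log2 scale, 4 libraries for each change), where 34.8% of all genes tested did so. The difference was -2.10 for VEGFA, -1.16 for VEGFB, -2.27 for VEGFC, -1.49 for PGF, -1.22 for ANGPTL4 and -0.41 for PDGFC, whose call was lost in 9 of 18 alternative settings (adjusted p up to 0.257, edgeR or DESeq2). It was 3.25 for ANGPT1, 3.13 for EDN1 and 2.43 for ADM. The siRNA side of the ANGPT1 difference rested on 15 to 19 reads in each library (-0.25 ± 0.41). Both shETS1 libraries lay on the stated side of both shCON libraries for each of the 9 factors, where 76.6% of all genes tested did not overlap after shRNA. That concerns the shRNA change alone. The factors were picked on their changes in both knockdowns, from which the difference is made, so these counts are a description. The knockdown method and the count table cannot be told apart. Groups of 2 libraries were too small for a check of single libraries that stand apart.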

How the results depend on the processing

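All 10 members were called after shRNA, and 8 or 9 for the difference, in every alternative run, except that 9 were called after shRNA without shCON replicate 1. Over all alternatives, 451 of 478 fold changes of the members kept their direction and their side of the threshold, 16 lost a call, 6 gained one and 5 reversed. After siRNA the members' 2 calls became 1 at an adjusted p under 0.05, 1 with the replicate number as a block, and 0 to 3 when a library was left out. Samples of the same replicate number did not deviate alike: deviations from the group means correlated at -0.54 for the siRNA and -0.24 for the shRNA libraries. Negative values mean that samples of unlike numbers deviated alike, a shared spread that the main fit leaves unmodelled. The block gave 97 siRNA calls over all genes in place of 502, and it cost VEGFA its siRNA call (adjusted p = 0.268, edgeR). Crossing the numbers, an alternative chosen after seeing the data, gave 6 members called and 3238 of all genes. All-gene siRNA calls were also 2166 with all 8 libraries in one fit, 1466 without a filter on low counts, 787 for protein-coding genes with at least 1 TPM, 766 in DESeq2, 190 at an adjusted p under 0.05, and 72 to 1478 when a library was left out. The reversals were values that were not called: ANGPT1 after siRNA, at 0.09 without siRNA control replicate 2 (range over left-out libraries -0.56 to 0.09), ANGPTL4 after siRNA, at 0.05 without siRNA control replicate 1 and 0.02 without ETS1 siRNA replicate 1 (-0.36 to 0.05), and the THBS1 difference, at -0.01 without siRNA control replicate 1 and -0.04 without shCON replicate 2 (-0.04 to 0.27). The PDGFC difference lost its call in 9 of 18 settings, with values of -0.49 to -0.33 and adjusted p of 0.0332 to 0.257 over all settings. The cause was not tested. Scaling by library size only shifted the median over all genes to -0.12 after shRNA and split the calls into 3624 higher and 6269 lower, in place of 4900 and 5088, and the median of the HIF target genes to -0.23. With 2 libraries in a group, and common dispersions of 0.0192 for siRNA and 0.00402 for shRNA, the siRNA comparison was the less precise.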
